A study of Mus musculus with 12 samples.

Results

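The genes of cholesterol and fatty acid synthesis were examined in mouse brain tissue after ischemic stroke. They are 32 genes, taken by symbol from a table of 25124 genes, and all 32 were among the 17612 genes with enough counts to be tested. By role they fall into 5 groups. The mevalonate steps hold 7 genes, the sterol steps 11, sterol sensing and transport 5, fatty acid synthesis 4, and desaturation and elongation 5.

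Cholesterol is made from acetyl-CoA. The mevalonate steps turn acetyl-CoA into isoprenoid units and farnesyl diphosphate, and the sterol steps join these to squalene, close the rings and trim lanosterol to cholesterol. The brain makes its own cholesterol, because lipoproteins of the blood hardly cross the blood-brain barrier, and oligodendrocytes, astrocytes and neurons all contribute. Transcription of the pathway is set by sterol regulatory element binding proteins (SREBPs): the escort protein Scap carries them out of the endoplasmic reticulum when sterols are scarce, and Insig1 holds them back when sterols are plentiful. SREBP2, from Srebf2, acts mainly on cholesterol genes, and SREBP1, from Srebf1, mainly on fatty acid genes, with Srebf1 itself a known target of the oxysterol-sensing liver X receptors.

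Tissue was taken 28 days after middle cerebral artery occlusion (MCAo), a stroke model in which the artery that feeds much of 1 hemisphere is blocked. The DKK1 mice, with the labelled genotype Gt(ROSA)26Sortm1.1(rtTA,EGFP)Nagy, Hprttm1(tetO-Dkk1)Spdl and Tg(TCF/Lef1-lacZ)34Efu/J, carry a doxycycline-dependent activator at the ROSA26 locus, a Dkk1 transgene that answers to it at Hprt, and a Wnt reporter. The others were wild type (WT, C57BL6/J). DKK1 is a secreted inhibitor of Wnt signalling. All mice, controls included, had doxycycline (200 mg/kg), with induction 3 days after MCAo, so the genotype comparison sets induced transgenic mice against WT mice on the same drug, and transgenic mice without doxycycline were not analysed here. The ipsilateral hemisphere bears the lesion and the contralateral one is intact, which gave 4 groups of 3 libraries: DKK1 ipsilateral, DKK1 contralateral, WT ipsilateral and WT contralateral. Nothing in the labels says that the libraries of a group are different animals, so a p-value here speaks of the variation among libraries, which may in part be technical.

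Libraries held 21209920 to 26911840 counts and 19557 to 20272 detected genes, and the 32 genes took 0.327% to 0.389% of the counts. Dkk1 had 32, 7 and 44 counts in the DKK1 ipsilateral libraries and 13, 5 and 4 in the DKK1 contralateral libraries, against 0 in each WT library. Markers of neurons, oligodendrocytes and astrocytes were abundant in every library, in keeping with the brain label. Both WT libraries with the number 1 stood apart: summed CPM of 8 microglia and macrophage markers was 1164 in WT ipsilateral 1, against 697 and 827 in the other 2 of its group, and 349 in WT contralateral 1, against 213 and 221. Lesion calls that were lost without both of these libraries are listed at the end of the results.

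On the lesioned side most of the cholesterol genes were lower in both genotypes, while Srebf1 was higher. In DKK1 mice 21 of the 32 genes fell and 2 rose (edgeR quasi-likelihood test, Benjamini-Hochberg adjusted p under 0.05), where 22.6% of all genes tested fell and 27.5% rose. In WT mice 18 fell and 1 rose, where 15.9% of all genes fell and 21.2% rose. Without WT contralateral 1, 10 fell in WT mice, where 14.2% of all genes did. The median log2 fold change, ipsilateral over contralateral, was −0.32 over the 32 genes and 0.01 over all genes in DKK1 mice, and −0.23 and 0.01 in WT mice. For 23 of the 32 genes every DKK1 ipsilateral library lay below every DKK1 contralateral one (27.8% of all genes), and for 20 of 32 the same held in WT mice (23.8% of all genes). All 19 genes called in WT mice were called in DKK1 mice, and Mvk, Lss, Ebp and Elovl6 passed in DKK1 mice alone, but the interaction test called none of these 4. The 2 comparisons share no library. These are whole pieces of tissue, in which fewer cells of a type and less RNA per cell cannot be told apart.

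**Figure D1:**
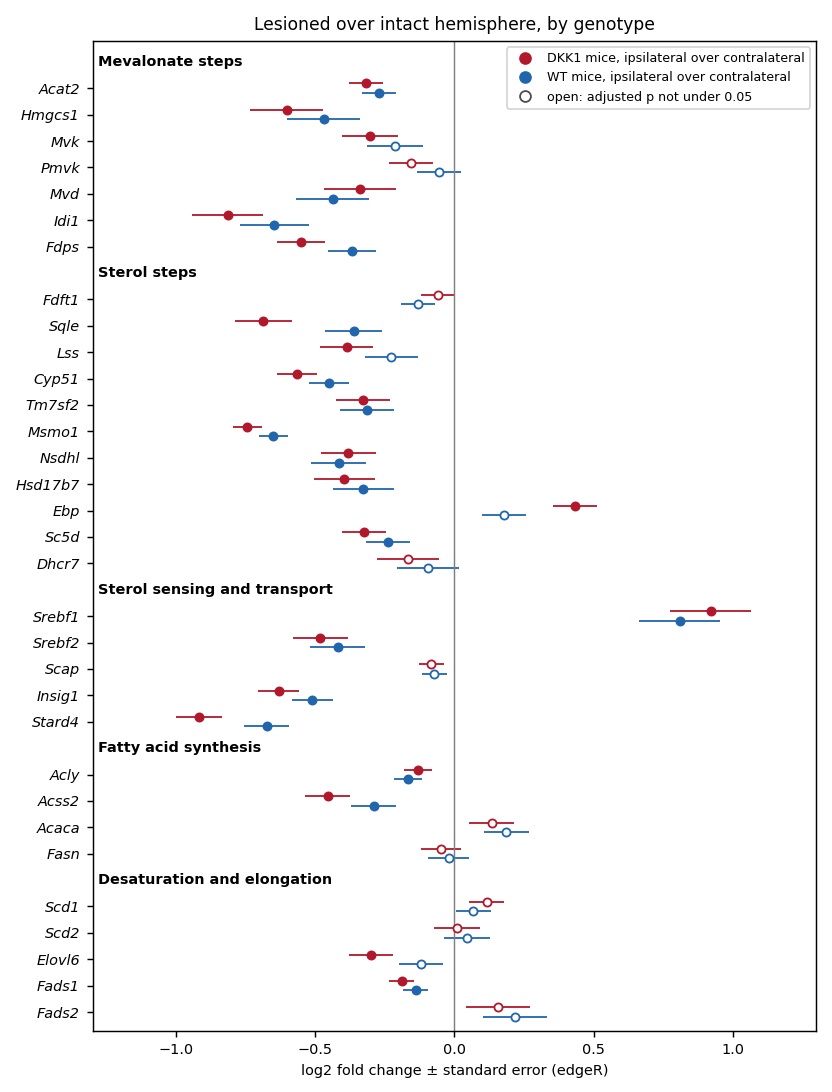
The plot gives the log2 fold change of each of the 32 genes, lesioned (ipsilateral) over intact (contralateral) hemisphere, in DKK1 mice (red) and WT mice (blue), with edgeR standard errors from 3 libraries per group. Filled points passed an adjusted p of 0.05. Points of the mevalonate and sterol steps lie left of 0 but for Ebp, Srebf1 lies at 0.92 and 0.81, and the 2 fatty acid groups lie near 0 apart from Acss2 and Elovl6.

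The promoters of the genes were searched because so many of the genes moved together. RefSeq promoter windows (build GRCm38.p6, from 250 bases before to 50 after the start of transcription) were found for 25 of the 32 genes. None was found for Fdps, Fdft1, Sqle, Stard4, Scd1, Scd2 or Fads1, so the shares below leave these genes out. The NF-Y box, letters CCAAT, stood in 20 of the 25 (80%), against 41.1% of the 27025 genes in the table and 42.0% of the 13462 genes that were also tested. The Sp1 box, GGGCGG, stood in 21 of 25 (84%), against 38.2% of all genes and 62.5% of those tested. The E-box, CACGTG, stood in 5 of 25 (20%), against 8.09% and 10.8%. The core of the sterol regulatory element, written TCACNCCAC, stood in 1 of 25 (4%), against 1.44% and 1.41%. Both strands were read, and no match overlapped a match of a different motif in these windows. In Fasn an NF-Y box on the gene's strand overlapped another on the opposite strand. A match is a string of letters, not a measured binding site. Only these exact spellings were searched, so a site spelled otherwise was not counted. All 9 genes of the sterol steps with a window held both the NF-Y and the Sp1 box, and so did Insig1, Srebf1 and Srebf2. A gene with several windows was counted when any of them held the motif. For Dhcr7 the NF-Y box lay in another window (143829964 to 143830263), not in that of the counted transcript.

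5 windows are printed, to set genes that fell beside genes that rose. Hmgcs1 (chromosome 13, 119690351 to 119708260, plus strand) was the single gene whose window matched the sterol regulatory element core as spelled above. Msmo1 (chromosome 8, 64718123 to 64733578, minus strand) fell with the smallest p. Srebf2 (chromosome 15, 82147269 to 82204960, plus strand) fell, while Srebf1 (chromosome 11, 60199084 to 60210471, minus strand, the window of the transcript that was counted) and Ebp (chromosome X, 8185329 to 8193512, minus strand) were the 2 that rose in DKK1 mice, Srebf1 alone also in WT mice. The windows run 5′ to 3′ on the gene's strand, and capitals mark the sterol regulatory element core and the NF-Y box, which reads ATTGG where it lies on the other strand.
Hmgcs1, chr13:119690101-119690400, plus strand: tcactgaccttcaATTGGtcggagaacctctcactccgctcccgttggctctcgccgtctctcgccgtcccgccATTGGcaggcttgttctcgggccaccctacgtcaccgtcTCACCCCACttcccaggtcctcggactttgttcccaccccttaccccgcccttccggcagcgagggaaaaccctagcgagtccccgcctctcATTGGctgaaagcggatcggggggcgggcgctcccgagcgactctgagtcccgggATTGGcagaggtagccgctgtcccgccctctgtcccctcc
Msmo1, chr8:64733529-64733828, minus strand: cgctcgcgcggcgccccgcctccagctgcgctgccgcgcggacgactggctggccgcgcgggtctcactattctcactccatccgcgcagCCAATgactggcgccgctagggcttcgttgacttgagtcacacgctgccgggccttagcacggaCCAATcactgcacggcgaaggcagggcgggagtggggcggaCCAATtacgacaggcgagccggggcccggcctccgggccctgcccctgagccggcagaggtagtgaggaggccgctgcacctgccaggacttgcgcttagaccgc
Srebf2, chr15:82147019-82147318, plus strand: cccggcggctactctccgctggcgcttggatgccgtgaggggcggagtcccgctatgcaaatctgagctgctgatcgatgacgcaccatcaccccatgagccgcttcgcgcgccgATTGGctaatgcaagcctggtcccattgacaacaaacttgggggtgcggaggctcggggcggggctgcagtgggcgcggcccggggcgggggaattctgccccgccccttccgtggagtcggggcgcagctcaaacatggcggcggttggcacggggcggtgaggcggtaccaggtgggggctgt
Srebf1, chr11:60210422-60210721, minus strand: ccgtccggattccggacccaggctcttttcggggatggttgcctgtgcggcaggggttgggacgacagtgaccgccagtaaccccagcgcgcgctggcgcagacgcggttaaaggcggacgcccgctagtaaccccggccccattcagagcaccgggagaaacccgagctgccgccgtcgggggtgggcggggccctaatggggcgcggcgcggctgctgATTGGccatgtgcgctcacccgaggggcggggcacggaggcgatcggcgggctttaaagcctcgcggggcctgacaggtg
Ebp, chrX:8193463-8193762, minus strand: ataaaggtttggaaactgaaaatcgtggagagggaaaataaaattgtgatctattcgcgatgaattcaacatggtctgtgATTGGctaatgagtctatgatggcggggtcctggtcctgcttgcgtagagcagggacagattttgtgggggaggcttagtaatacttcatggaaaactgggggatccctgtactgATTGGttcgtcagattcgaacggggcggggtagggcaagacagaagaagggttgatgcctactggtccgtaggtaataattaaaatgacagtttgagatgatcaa
In Hmgcs1 the sterol regulatory element core begins 137 bases before the start, between 4 NF-Y boxes. Msmo1 holds 3 NF-Y boxes, all on the strand of the gene, and Ebp holds 2 on the opposite strand. Srebf1 and Srebf2 hold 1 each. The NF-Y box stands in the printed windows of genes that fell and of genes that rose alike.

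**Figure D2:**
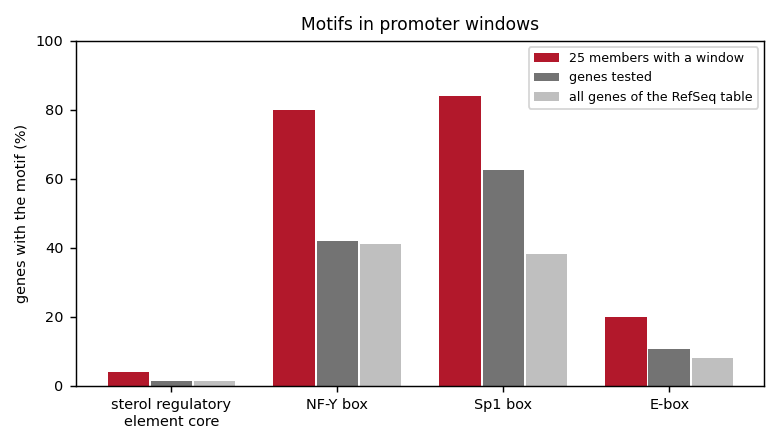
Bars give the percentage of genes whose promoter window holds each motif on either strand, for the 25 cholesterol and fatty acid genes with a window (red), the 13462 tested genes (dark grey) and all 27025 genes of the table (light grey). The NF-Y box stands at 80%, 42.0% and 41.1%, and the Sp1 box at 84%, 62.5% and 38.2%.

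Of the mevalonate steps, 6 of 7 genes fell in DKK1 mice and 5 of 7 in WT mice, with medians of −0.34 and −0.37 on the log2 scale. Summed over the 7 genes, DKK1 ipsilateral libraries held 237 to 264 CPM and DKK1 contralateral libraries 327 to 390 CPM, and WT ipsilateral libraries held 257.96 to 282 CPM and WT contralateral libraries 324 to 395 CPM. CPM (library-scaled counts) are scaled for library size and composition, and differences below are log2 fold changes ± standard error.

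Idi1, the isomerase that makes the reactive isoprenoid unit, changed most in this group. It had 5.52, 4.29 and 4.32 CPM in the DKK1 ipsilateral libraries, against 8.57, 8.16 and 8.15 CPM in the DKK1 contralateral libraries (−0.82 ± 0.13, adjusted p = 0.000287). It had 6.13, 6.18 and 6.16 CPM in the WT ipsilateral libraries, against 10.4, 8.68 and 9.88 CPM in the WT contralateral libraries (−0.65 ± 0.12, adjusted p = 0.00215). The lesioned and intact libraries were apart in both genotypes, and all 3 DKK1 ipsilateral libraries were also below all 3 WT ipsilateral libraries. Fdps, which makes farnesyl diphosphate, had the second smallest p of the group in DKK1 mice. Its CPM was 33.5, 30.3 and 29.7 in DKK1 ipsilateral and 49.1, 43.6 and 44.4 in DKK1 contralateral libraries (−0.55 ± 0.09, adjusted p = 0.0003). In WT mice its CPM was 35.1, 32.3 and 31.3 in ipsilateral and 47.0, 38.1 and 42.2 in contralateral libraries (−0.37 ± 0.09, adjusted p = 0.00654). The groups did not overlap in either genotype. Fdps shares 1124 exonic bases with the annotated gene Gm43738 on the same strand, so its counts are uncertain to that extent.

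Hmgcs1, the cytosolic synthase of HMG-CoA whose window is printed above, had 132, 118 and 109.7 CPM in DKK1 ipsilateral libraries, against 217, 166 and 164 CPM in DKK1 contralateral libraries (−0.60 ± 0.13, adjusted p = 0.00264). In WT mice it had 146, 127 and 129 CPM in ipsilateral libraries, against 220.05, 167 and 171 CPM in contralateral libraries (−0.47 ± 0.13, adjusted p = 0.0156). The groups were apart in both genotypes, and library 1 was the highest of its group in all 4 groups. Without WT contralateral 1 the WT call was lost (adjusted p = 0.0515). Acat2, the thiolase that joins acetyl-CoA units at the head of the pathway, had 36.1, 37.6 and 33.4 CPM in DKK1 ipsilateral libraries and 43.1, 46.7 and 43.7 CPM in DKK1 contralateral libraries (−0.32 ± 0.06, adjusted p = 0.00118). It had 33.3, 35.7 and 36.0 CPM in WT ipsilateral libraries and 43.3, 40.7 and 42.8 CPM in WT contralateral libraries (−0.27 ± 0.06, adjusted p = 0.00533). Again no ipsilateral library reached a contralateral one of its genotype, and the WT call was lost without both WT libraries of number 1 (adjusted p = 0.0504).

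The remaining genes of these steps act between HMG-CoA and the isoprenoid unit. Mevalonate kinase (Mvk) fell in DKK1 mice (−0.30 ± 0.10, adjusted p = 0.0259) and did not pass in WT mice (−0.21 ± 0.10, adjusted p = 0.113). The decarboxylase Mvd fell in both (−0.34 ± 0.13, adjusted p = 0.0476 in DKK1 mice, and −0.44 ± 0.13, adjusted p = 0.0212 in WT mice), with libraries that ranged from 14.4 to 17.8 CPM on the ipsilateral and from 18.6 to 26.0 CPM on the contralateral side. The Mvk call in DKK1 mice was lost without DKK1 ipsilateral 1, DKK1 ipsilateral 3 or DKK1 contralateral 2 (adjusted p = 0.0903, 0.0741 and 0.0649). The Mvd call in DKK1 mice was lost without any 1 of 8 of the 12 libraries, with the largest adjusted p, 0.148, without DKK1 contralateral 1. In WT mice the Mvd call was lost without WT ipsilateral 2 (adjusted p = 0.0653) or WT contralateral 1 (adjusted p = 0.08). Phosphomevalonate kinase (Pmvk) did not pass in DKK1 mice (−0.16 ± 0.08) or in WT mice (−0.05 ± 0.08).

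The sterol steps held the gene with the smallest p of the whole set, Msmo1. In DKK1 mice 8 of 11 genes fell and 1 rose, in WT mice 7 fell and none rose, with medians of −0.38 and −0.31. Summed CPM of the 11 genes was 399 to 409.9 in DKK1 ipsilateral and 502 to 526 in DKK1 contralateral libraries, and 416 to 435 in WT ipsilateral and 492 to 561 in WT contralateral libraries.

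Msmo1, the oxidase that starts removal of the methyl groups of lanosterol's product, had the smallest p of all 32 genes in both genotypes. It had 43.8, 42.2 and 41.5 CPM in DKK1 ipsilateral libraries, against 75.8, 68.6 and 69.4 CPM in DKK1 contralateral libraries (−0.74 ± 0.05, adjusted p = 2.02e-06). It had 48.4, 46.1 and 49.1 CPM in WT ipsilateral libraries, against 77.3, 74.2 and 73.9 CPM in WT contralateral libraries (−0.65 ± 0.05, adjusted p = 1.81e-05). The gap between the hemispheres was far wider than the spread within any group. Cyp51, the demethylase that acts on lanosterol, had 46.8, 41.5 and 44.9 CPM in DKK1 ipsilateral and 64.6, 65.6 and 67.0 CPM in DKK1 contralateral libraries (−0.57 ± 0.07, adjusted p = 6.9e-05). In WT mice it had 49.6, 49.4 and 53.6 CPM in ipsilateral and 77.1, 64.0 and 67.3 CPM in contralateral libraries (−0.45 ± 0.07, adjusted p = 0.000712). The groups were apart in both genotypes. Cyp51 shares 166 exonic bases with Akap9 on the opposite strand, a gene that also fell in DKK1 mice (−0.51 ± 0.07) and in WT mice (−0.41 ± 0.07), and whether strand was used in counting is not given in the sources used here.

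Squalene epoxidase (Sqle), a rate-limiting step of the sterol branch, had 33.7, 30.7 and 29.1 CPM in DKK1 ipsilateral libraries, against 55.1, 49.1 and 46.5 CPM in DKK1 contralateral libraries (−0.69 ± 0.10, adjusted p = 0.000216). It had 39.3, 35.9 and 39.4 CPM in WT ipsilateral libraries, against 56.5, 42.6 and 48.1 CPM in WT contralateral libraries (−0.36 ± 0.10, adjusted p = 0.0158). The groups were apart in each genotype, by a narrow gap in WT mice, where the call was lost without WT contralateral 1 (adjusted p = 0.0567). The difference between the genotypes in this lesion contrast was −0.33 ± 0.14 and did not pass (interaction, adjusted p = 0.512).

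Ebp, the isomerase that shifts the double bond of the sterol ring, went the other way. It had 20.8, 23.1 and 21.6 CPM in DKK1 ipsilateral libraries, against 15.0, 16.2 and 17.2 CPM in DKK1 contralateral libraries (0.43 ± 0.08, adjusted p = 0.000916). It had 21.4, 21.0 and 19.9 CPM in WT ipsilateral libraries, against 17.1, 18.6 and 19.4 CPM in WT contralateral libraries (0.18 ± 0.08, adjusted p = 0.102). Every ipsilateral library was above every contralateral one in both genotypes, but only the DKK1 difference passed, and the interaction did not (0.26 ± 0.11, adjusted p = 0.512). On the deposited TPM the WT difference did pass (0.21, limma adjusted p = 0.0336), in a fit whose median WT lesion difference over all genes was 0.046.

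Tm7sf2, Nsdhl, Hsd17b7 and Sc5d, which reduce, demethylate and desaturate the sterol, fell in both genotypes. Their changes lay between −0.40 and −0.33 in DKK1 mice (adjusted p between 0.00473 and 0.0143) and between −0.42 and −0.24 in WT mice (adjusted p between 0.00704 and 0.0341). In WT mice the calls of Tm7sf2, Hsd17b7 and Sc5d were each lost without WT ipsilateral 1 (adjusted p = 0.0736, 0.127 and 0.0525), WT ipsilateral 3 (0.059, 0.069 and 0.106) or WT contralateral 1 (0.0652, 0.134 and 0.122). Tm7sf2 was also lost without WT contralateral 3 (0.0753), Sc5d without WT contralateral 2 (0.0529), and Hsd17b7 without DKK1 contralateral 2 (0.05) or 3 (0.0514). Nsdhl kept its call throughout. Tm7sf2 shares 532 exonic bases with Vps51 on the same strand, so its counts are uncertain to that extent. Vps51 had 80.3, 79.8 and 79.3 CPM in DKK1 ipsilateral and 78.5, 82.8 and 82.7 CPM in DKK1 contralateral libraries. In WT mice Vps51 had 76.3, 73.4 and 71.9 CPM in ipsilateral and 81.0, 79.7 and 78.2 CPM in contralateral libraries. Lanosterol synthase (Lss), which closes the rings, fell in DKK1 mice (−0.39 ± 0.10, adjusted p = 0.00547), at 35.8 ± 2.62 CPM in ipsilateral and 46.8 ± 0.591 CPM in contralateral libraries (SD, n = 3). In WT mice it did not pass (−0.23 ± 0.10, adjusted p = 0.0812), but passed with the library number as a block (adjusted p = 0.0268) and without WT contralateral 2 (adjusted p = 0.0247). Dhcr7, a last reductase of the pathway, did not pass in DKK1 mice (−0.17 ± 0.11, adjusted p = 0.234, 0.0358 with the block and 0.0288 without both WT libraries of number 1) or WT mice (−0.10 ± 0.11, adjusted p = 0.532).

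Squalene synthase (Fdft1), the first gene of the sterol branch, had 98.9, 111 and 104 CPM in DKK1 ipsilateral and 109, 111 and 107 CPM in DKK1 contralateral libraries (−0.06 ± 0.06, adjusted p = 0.457). It had 95.8, 89.8 and 98.6 CPM in WT ipsilateral and 97.9, 102 and 112 CPM in WT contralateral libraries (−0.13 ± 0.06, adjusted p = 0.113). Its libraries overlapped in both genotypes. Fdft1 shares 774 exonic bases with Ctsb, a lysosomal protease gene on the opposite strand that had 774, 929.8 and 929 CPM in DKK1 ipsilateral and 353, 343 and 359.8 CPM in DKK1 contralateral libraries. Ctsb rose in DKK1 mice (1.32 ± 0.11) and in WT mice (0.85 ± 0.11), and without knowing whether strand was used in counting, reads of the 2 genes over the shared bases cannot be told apart.

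**Figure D3:**
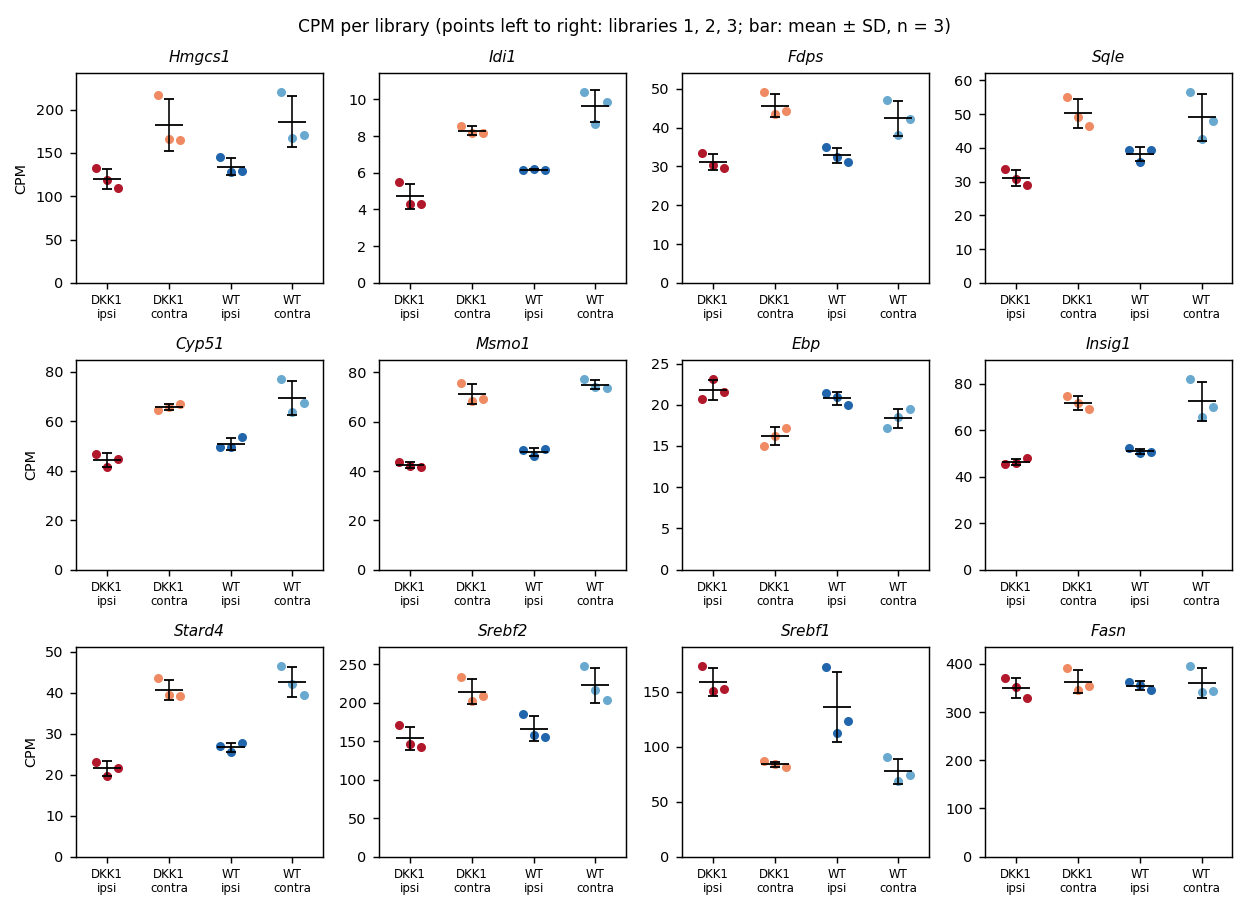
Each panel gives the CPM of 1 gene in every library, with libraries 1, 2 and 3 of a group from left to right, and bars for the mean ± SD (n = 3). Ipsilateral points lie below the contralateral points of the same genotype for Hmgcs1, Idi1, Fdps, Sqle, Cyp51, Msmo1, Insig1, Stard4 and Srebf2, and above them for Ebp and Srebf1, while Fasn overlaps.

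The genes of sterol sensing and transport split. In both genotypes Stard4, Insig1 and Srebf2 fell and Srebf1 rose, and Scap did not pass in DKK1 mice (−0.08 ± 0.05, adjusted p = 0.149, and 0.0311 with upper-quartile scaling) or in WT mice (−0.07 ± 0.05, adjusted p = 0.231). Stard4, a soluble carrier that moves sterol between membranes, had the largest fold change of the falling genes. It had 23.2, 19.7 and 21.7 CPM in DKK1 ipsilateral libraries, against 43.5, 39.4 and 39.2 CPM in DKK1 contralateral libraries (−0.92 ± 0.08, adjusted p = 5.67e-06). It had 26.9, 25.5 and 27.6 CPM in WT ipsilateral libraries, against 46.5, 42.0 and 39.3 CPM in WT contralateral libraries (−0.67 ± 0.08, adjusted p = 0.00012). The level was 47.1% lower on the lesioned side of DKK1 mice and 37.4% lower on that of WT mice, with no overlap between hemispheres.

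Insig1, which retains the SREBP escort complex and is itself a known SREBP target, had 45.3, 45.7 and 47.9 CPM in DKK1 ipsilateral and 74.8, 71.6 and 68.9 CPM in DKK1 contralateral libraries (−0.63 ± 0.07, adjusted p = 3.37e-05). It had 52.2, 50.1 and 50.4 CPM in WT ipsilateral and 81.9, 65.8 and 69.8 CPM in WT contralateral libraries (−0.51 ± 0.07, adjusted p = 0.000345). The ipsilateral libraries were close to each other, and the widest spread was among WT contralateral libraries, where library 1 was high. Srebf2, which encodes SREBP2, had 171, 147 and 143 CPM in DKK1 ipsilateral and 233, 202 and 209 CPM in DKK1 contralateral libraries (−0.48 ± 0.10, adjusted p = 0.00181). It had 185, 159 and 155 CPM in WT ipsilateral and 248, 217 and 203 CPM in WT contralateral libraries (−0.42 ± 0.10, adjusted p = 0.0069). The groups were apart, and library 1 was again the highest of each group.

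Srebf1, which encodes SREBP1, rose by more than any other of the 32 genes. It had 173, 151 and 153 CPM in DKK1 ipsilateral libraries, against 86.6, 83.8 and 81.6 CPM in DKK1 contralateral libraries (0.92 ± 0.15, adjusted p = 0.000369, 1.89-fold). It had 173, 112 and 123 CPM in WT ipsilateral libraries, against 90.3, 68.3 and 74.4 CPM in WT contralateral libraries (0.81 ± 0.15, adjusted p = 0.00167, 1.75-fold). The hemispheres did not overlap in either genotype, and the spread was widest in the WT ipsilateral group, where library 1 matched the DKK1 libraries. Srebf1 shares 109 exonic bases with Rai1 on the opposite strand, and Rai1 did not pass in DKK1 mice (−0.08 ± 0.05) and fell in WT mice (−0.15 ± 0.05).

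Because the 2 SREBP genes moved apart, their ratio shifted. On the length-corrected scale of the deposited TPM, Srebf1 over Srebf2 was 1.08, 1.11 and 1.15 in the DKK1 ipsilateral libraries, against 0.399, 0.443 and 0.420 in the DKK1 contralateral libraries. It was 0.994, 0.760 and 0.851 in the WT ipsilateral libraries, against 0.388, 0.340 and 0.393 in the WT contralateral libraries. Each ipsilateral library had a higher ratio than every contralateral one, and the 3 DKK1 ipsilateral libraries were the 3 with more Srebf1 than Srebf2. The ratio was formed after both changes were known and was not tested, and the TPM of Srebf1 rests on another of its transcripts than the counts do.

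The genes of fatty acid synthesis lay nearer to 0. Of 4 genes, 2 fell in each genotype, with medians of −0.09 on the log2 scale in both, and summed CPM overlapped between hemispheres in DKK1 mice (627 to 694 ipsilateral, 687 to 727 contralateral) and in WT mice (682 to 695 ipsilateral, 694 to 759.9 contralateral). The 2 genes that fell make acetyl-CoA in the cytosol, which both cholesterol and fatty acids need. Acss2, which makes it from acetate, had 35.4, 40.1 and 35.1 CPM in DKK1 ipsilateral and 49.97, 53.6 and 48.2 CPM in DKK1 contralateral libraries (−0.46 ± 0.08, adjusted p = 0.000637). It had 37.2, 44.5 and 42.9 CPM in WT ipsilateral and 53.6, 49.3 and 49.4 CPM in WT contralateral libraries (−0.29 ± 0.08, adjusted p = 0.0139). The hemispheres were apart, though the WT call was lost without WT ipsilateral 1 (adjusted p = 0.0541). Acss2 shares 395 exonic bases with Gss and 197 with Ggt7, both on the opposite strand. Ggt7 had 113 to 123 CPM in DKK1 ipsilateral and 142 to 153 CPM in DKK1 contralateral libraries. In WT mice Ggt7 had 103 to 134 CPM in ipsilateral and 132 to 154 CPM in contralateral libraries. Gss had 23.6 to 26.9 CPM in DKK1 ipsilateral and 19.1 to 23.2 CPM in DKK1 contralateral libraries. In WT mice Gss had 22.2 to 27.6 CPM in ipsilateral and 21.5 to 24.7 CPM in contralateral libraries.

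Acly, which makes acetyl-CoA from citrate, had 212, 196 and 189 CPM in DKK1 ipsilateral and 215, 214 and 225 CPM in DKK1 contralateral libraries (−0.13 ± 0.05, adjusted p = 0.0451, and 0.056 with the block). It had 204, 209.5 and 209.6 CPM in WT ipsilateral and 237, 235 and 227 CPM in WT contralateral libraries (−0.17 ± 0.05, adjusted p = 0.0211). This was the smallest change that passed in DKK1 mice, where the call was lost without any 1 of 7 of the 12 libraries, with the largest adjusted p, 0.165, without DKK1 ipsilateral 3. In WT mice it was lost without WT ipsilateral 1 (adjusted p = 0.064), WT contralateral 1 (0.058) or WT contralateral 2 (0.0628). Fatty acid synthase (Fasn), which builds the chain, had 371, 351 and 329.6 CPM in DKK1 ipsilateral and 391, 345 and 353 CPM in DKK1 contralateral libraries (−0.05 ± 0.07, 95% interval −0.21 to 0.11). It had 363, 356 and 345 CPM in WT ipsilateral and 395, 341 and 344 CPM in WT contralateral libraries (−0.02 ± 0.07, 95% interval −0.18 to 0.14). The libraries overlapped, and the intervals leave out changes as large as that of Acss2 in either genotype. Acaca, the carboxylase that commits acetyl-CoA to fatty acids, had 75.6, 83.8 and 73.7 CPM in DKK1 ipsilateral and 71.6, 74.5 and 66.3 CPM in DKK1 contralateral libraries (0.13 ± 0.08, adjusted p = 0.189). It had 77.6, 84.97 and 92.7 CPM in WT ipsilateral and 73.5, 69.8 and 80.99 CPM in WT contralateral libraries (0.19 ± 0.08, adjusted p = 0.088). With the library number as a block both passed (adjusted p = 0.0422 in DKK1 mice and 0.0115 in WT mice), and the WT difference also passed without WT ipsilateral 1 (adjusted p = 0.042).

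Of the desaturation and elongation genes, 2 of 5 fell in DKK1 mice and 1 of 5 in WT mice, with medians of 0.01 and 0.05. Scd2, the main stearoyl-CoA desaturase of the brain, was the most abundant of the 32 genes per length, at 239.9 ± 18.5 TPM in DKK1 ipsilateral, 236 ± 19.1 in DKK1 contralateral, 254.03 ± 12.1 in WT ipsilateral and 238 ± 18.1 TPM in WT contralateral libraries (SD, n = 3 each). Idi1 was the least abundant, at 2.38 ± 0.350, 4.14 ± 0.106, 3.20 ± 0.0117 and 4.86 ± 0.510 TPM in the same groups. Scd2 did not pass in DKK1 mice (0.01 ± 0.08) or in WT mice (0.05 ± 0.08). Its paralog Scd1 had 216, 216 and 231 CPM in DKK1 ipsilateral libraries, against 210.4, 199 and 201 CPM in DKK1 contralateral libraries (0.12 ± 0.06, adjusted p = 0.144). It had 249.9, 230.3 and 244 CPM in WT ipsilateral libraries, against 248.97, 211 and 231 CPM in WT contralateral libraries (0.07 ± 0.06, adjusted p = 0.428). The DKK1 groups were apart and the WT groups overlapped, and since the 2 genes are similar in sequence, reads may have been split between them.

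Elovl6, which lengthens palmitate, had 66.3, 56.6 and 66.8 CPM in DKK1 ipsilateral and 76.2, 78.3 and 79.3 CPM in DKK1 contralateral libraries (−0.30 ± 0.08, adjusted p = 0.00766). It had 69.99, 80.97 and 78.7 CPM in WT ipsilateral and 76.2, 88.5 and 85.2 CPM in WT contralateral libraries (−0.12 ± 0.08, adjusted p = 0.25). The DKK1 groups were apart and the WT groups overlapped, while the difference between these lesion effects did not pass (−0.18 ± 0.11, adjusted p = 0.651). Fads1, a desaturase of polyunsaturated fatty acids, had 181, 172 and 168 CPM in DKK1 ipsilateral and 196, 202 and 197 CPM in DKK1 contralateral libraries (−0.19 ± 0.05, adjusted p = 0.00421). It had 183, 172 and 179 CPM in WT ipsilateral and 202, 194 and 193 CPM in WT contralateral libraries (−0.14 ± 0.05, adjusted p = 0.0301). The hemispheres were apart in both genotypes, though the WT call was lost without WT ipsilateral 2 or 3 or WT contralateral 1 or 2 (adjusted p between 0.0606 and 0.0907). Its neighbour Fads2, which acts earlier on the same fatty acids, had 162, 138 and 149 CPM in DKK1 ipsilateral and 147, 131 and 124 CPM in DKK1 contralateral libraries (0.16 ± 0.12, adjusted p = 0.284). It had 171, 134 and 141 CPM in WT ipsilateral and 148, 113 and 123 CPM in WT contralateral libraries (0.22 ± 0.12, adjusted p = 0.163). The libraries overlapped, but within each number the ipsilateral library was above the contralateral one, and with the number as a block both differences passed (adjusted p = 0.0157 in DKK1 mice and 0.00355 in WT mice), as the WT difference did without WT contralateral 1 (adjusted p = 0.0389).

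Other genes of the same pathways were read from a second list of 32 genes, of which 31 were tested. In DKK1 mice 8 rose and 10 fell, with a median of −0.02, and in WT mice 5 rose and 7 fell, with a median of −0.07. Of all genes 27.5% rose and 22.6% fell in DKK1 mice, and 21.2% rose and 15.9% fell in WT mice. Cyp46a1, the neuronal enzyme by which the brain clears cholesterol, had 123, 125 and 113 CPM in DKK1 ipsilateral and 176, 169 and 176 CPM in DKK1 contralateral libraries (−0.53 ± 0.09, adjusted p = 0.000488). It had 110.3, 145 and 133 CPM in WT ipsilateral and 165, 191 and 179.7 CPM in WT contralateral libraries (−0.46 ± 0.09, adjusted p = 0.00213). The hemispheres were apart in both genotypes, and WT ipsilateral 1 was the lowest library.

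Several genes of this second list rose. Elovl1, which makes very long saturated chains, rose (0.86 ± 0.10 in DKK1 mice and 0.61 ± 0.10 in WT mice), as did Elovl7 (0.55 ± 0.12 and 0.69 ± 0.12). The carbohydrate-responsive transcription factor gene Mlxipl had 23.0, 21.7 and 30.5 CPM in DKK1 ipsilateral and 5.39, 5.86 and 5.58 CPM in DKK1 contralateral libraries (2.16 ± 0.26). It had 24.9, 11.8 and 12.9 CPM in WT ipsilateral and 6.45, 5.26 and 5.87 CPM in WT contralateral libraries (1.50 ± 0.26). Nr1h3, the liver X receptor common in macrophages, had 14.1, 20.6 and 21.2 CPM in DKK1 ipsilateral and 5.19, 6.11 and 5.71 CPM in DKK1 contralateral libraries (1.71 ± 0.23). It had 17.0, 10.03 and 9.44 CPM in WT ipsilateral and 4.84, 5.69 and 5.36 CPM in WT contralateral libraries (1.20 ± 0.23). For both genes WT ipsilateral 1 stood above the other 2 libraries of its group, as it did for Srebf1.

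Cell type markers moved in the same comparisons. All 8 neuron markers fell in both genotypes (medians −0.47 in DKK1 and −0.35 in WT mice), and their summed CPM was 3330.1 to 3766 in DKK1 ipsilateral and 4569 to 5065 in DKK1 contralateral libraries, and 3184 to 4038 in WT ipsilateral and 4626 to 4828 in WT contralateral libraries. Of 8 oligodendrocyte markers 6 rose and none fell in each genotype (medians 0.38 and 0.39), with summed CPM of 3675 to 3980.0 in DKK1 ipsilateral and 2829 to 3194 in DKK1 contralateral libraries, and 3619.6 to 3971 in WT ipsilateral and 2864 to 3157 in WT contralateral libraries. Of 6 astrocyte markers 4 rose and 1 fell in DKK1 mice, and 2 rose and none fell in WT mice. All 4 precursor markers of oligodendrocytes rose in both genotypes, and of 4 endothelial markers 3 rose in DKK1 and 2 in WT mice.

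Of 8 microglia and macrophage markers 8 rose in DKK1 mice and 7 in WT mice (medians 2.41 and 1.95). Their summed CPM was 1066 to 1214 in DKK1 ipsilateral and 212 to 260.1 in DKK1 contralateral libraries, and 697 to 1164 in WT ipsilateral and 213 to 349 in WT contralateral libraries. Of 7 T and B cell markers 6 rose and 1, Cd4, fell in both genotypes. In contralateral libraries mean CPM of Cd4 was 38.5 in DKK1 and 41.4 in WT mice, and that of Cd3e 0.088 and 0.094. Which cells the Cd4 counts came from was not tested, and the fall of Cd4 is not read here as fewer T cells. The part of these cell types in the changes of the cholesterol and fatty acid genes was not tested.

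**Figure D4:**
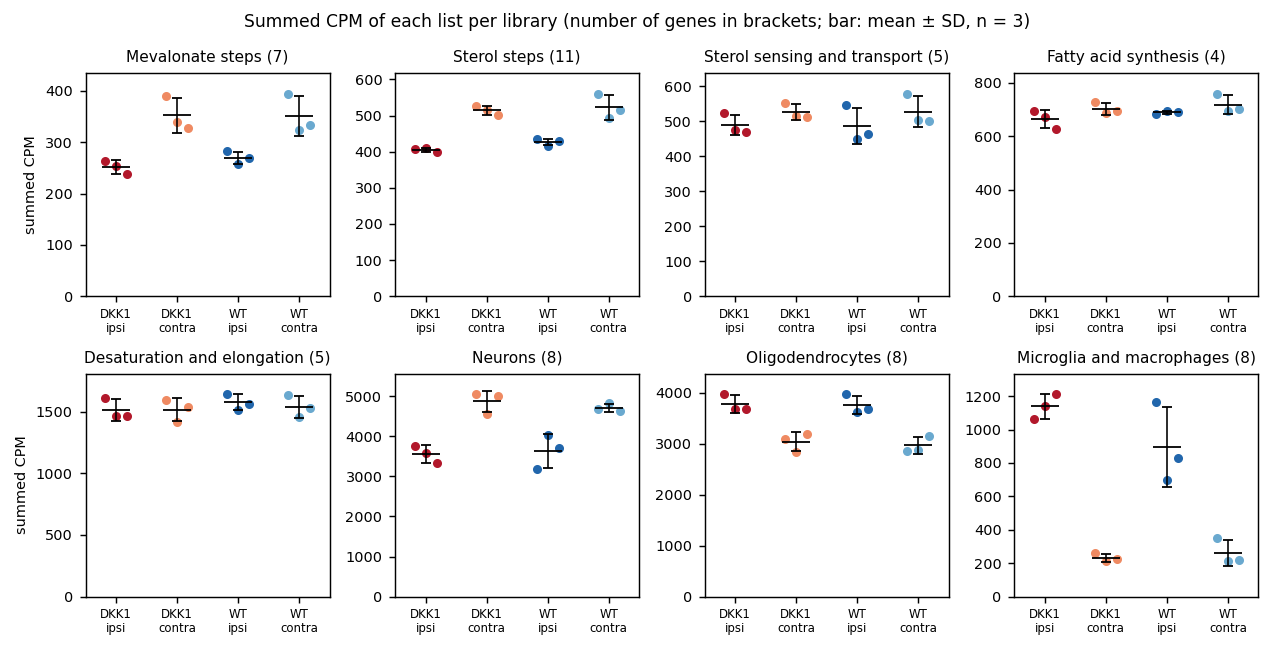
Panels give the summed CPM per library for the 5 role groups of cholesterol and fatty acid genes and for markers of neurons, oligodendrocytes, and microglia and macrophages, with bars for the mean ± SD (n = 3). Mevalonate and sterol sums are lower in every ipsilateral than in every contralateral library, as are the neuron sums, while oligodendrocyte and microglia sums are higher, and the sums of the 3 other role groups overlap.

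Between genotypes none of the 32 genes passed. On the lesioned side edgeR called 0 of 32, where 2.37% of all genes passed. At an unadjusted p under 0.05 stood 7 of the 32, and 3680 of all 17612 genes. The limma-voom fit called 0, and DESeq2 called 2 lower in DKK1 mice, where it called 6.44% of all genes. The median log2 fold change, DKK1 over WT, was −0.10 over the 32 genes and 0.02 over all genes. Lower in DKK1 mice were 25 of the 32, and 8009 of all 17612 genes. The smallest p-values were those of Stard4 (−0.31 ± 0.08, adjusted p = 0.0731), Elovl6 (−0.28 ± 0.08, adjusted p = 0.089) and Msmo1 (−0.17 ± 0.05, adjusted p = 0.105). The per-library values above show how narrow these gaps were: Stard4 had 19.7 to 23.2 CPM in DKK1 ipsilateral and 25.5 to 27.6 CPM in WT ipsilateral libraries, Elovl6 56.6 to 66.8 CPM against 69.99 to 80.97 CPM, and Msmo1 41.5 to 43.8 CPM against 46.1 to 49.1 CPM, with no overlap. The 2 that DESeq2 called were Stard4 (adjusted p = 0.0259) and Elovl6 (adjusted p = 0.0254). Stard4 passed edgeR with the library number as a block across genotypes (adjusted p = 0.0372, where 3.06% of all genes passed), though the labels do not tie a number of DKK1 mice to the same number of WT mice.

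These near-misses depended on single libraries. Without WT ipsilateral 1 Elovl6 passed (−0.34, adjusted p = 0.0183) and so did Srebf1, higher in DKK1 mice (0.43, adjusted p = 0.022, against 0.22 ± 0.14 and adjusted p = 0.395 with all libraries), 2 of 32, where 14.3% of all genes passed. Without DKK1 ipsilateral 1 Stard4 (adjusted p = 0.0376) and Idi1 (−0.52, adjusted p = 0.0391) passed, where 6.01% of all genes did. Without both WT libraries of number 1, Stard4, Elovl6, Cyp51 and Acss2 were called lower and Srebf1 higher in DKK1 mice, 5 of 32, where 18.3% of all genes passed. These counts were near or below the shares over all genes. With all libraries the 95% intervals of 29 of the 32 genes lay between −0.5 and 0.5, and the lowest bound of any, that of Idi1, was −0.66.

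On the intact side edgeR called 0 of 32, where 0.88% of all genes passed, and limma-voom and DESeq2 called 0. At an unadjusted p under 0.05 stood 2 of the 32, and 1071 of all 17612 genes. The median was −0.02 over the 32 genes and −0.002 over all genes. The smallest p-values were those of Scd1 (−0.18 ± 0.06, adjusted p = 0.513), Ebp (−0.18 ± 0.08, adjusted p = 0.76) and Acly (−0.10 ± 0.05, adjusted p = 0.905). All 32 intervals lay between −0.5 and 0.5, so a change of the size seen for Stard4 or Srebf1 between hemispheres is outside them.

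The interaction, which asks whether the lesion difference itself differs by genotype, passed for 0 of 32 genes, where it passed for 1 of 17612 genes (0.00568%). By limma-voom and DESeq2, 0 of the 32 were called. At an unadjusted p under 0.05 stood 2 of the 32, and 1689 of all 17612 genes. The 2 were Ebp and Sqle, given above. The lesion difference was more negative in DKK1 than in WT mice for 25 of the 32 genes and for 8205 of all 17612. The median difference was −0.06 against 0.02 over all genes, and the widest interval bound was −0.64 for Sqle. None of the 31 other pathway genes passed in a genotype comparison or the interaction.

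**Figure D5:**
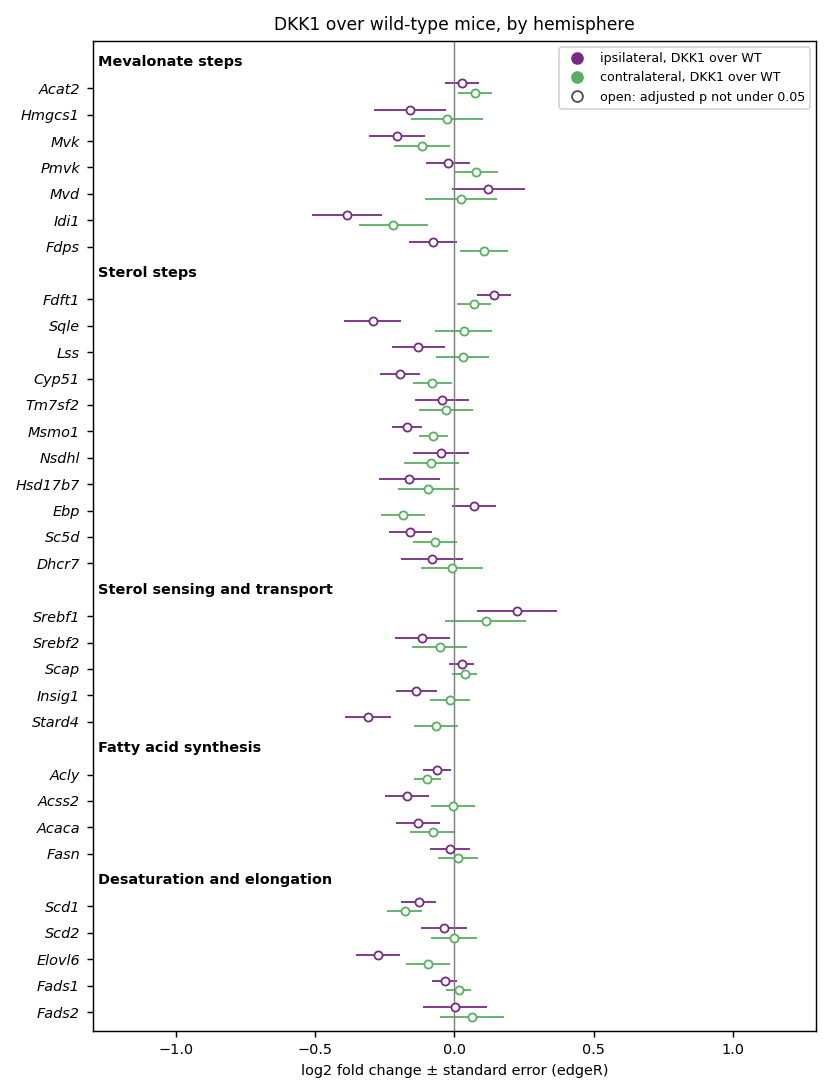
The plot gives the log2 fold change of each of the 32 genes, DKK1 over WT mice, on the lesioned side (purple) and the intact side (green), with edgeR standard errors from 3 libraries per group. All points are open, since none passed an adjusted p of 0.05. Purple points lie left of 0 for 25 of the 32 genes (8009 of 17612 over all genes), with Idi1 at −0.39 and Stard4 at −0.31.

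Within groups, library 1 was the highest of its 3 for 17 of the 32 genes in DKK1 ipsilateral, 18 in DKK1 contralateral, 16 in WT ipsilateral and 24 in WT contralateral libraries, where it was the highest for 35.9%, 35.8%, 44.1% and 40.7% of all genes without ties. It was the lowest for 7, 7, 8 and 5 of the 32 in the same groups, against 39.4%, 37.4%, 37.7% and 38.4% of all genes. The library most often lowest was number 3 in DKK1 ipsilateral and contralateral (17 of 32 in each, against 33.8% and 30.1% of all genes). In WT ipsilateral and contralateral it was number 2 (18 of 32 in each, against 35.1% and 33% of all genes). WT contralateral 1 held 395 CPM of the mevalonate genes, against 324 and 334 CPM in the other 2 of its group, and 561 CPM of the sterol genes, against 492 and 515 CPM. The number of genes that fell in WT mice therefore leaned on this library, with 10 called lower without it and 9 without both WT libraries of number 1 (9.04% of all genes), against 18 with all libraries. The 9 lost without both were Acat2, Mvd, Sqle, Tm7sf2, Hsd17b7, Sc5d, Acly, Acss2 and Fads1, at adjusted p between 0.0504 for Acat2 and 0.35 for Hsd17b7. In WT mice Cyp51, Fdps, Idi1, Insig1, Msmo1, Nsdhl, Srebf1, Srebf2 and Stard4 kept their calls under all 20 alternatives, and in DKK1 mice 20 of the 23 calls did, all but Mvk, Acly and Mvd.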

How the data were processed

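RNA was extracted from brain tissue with Qiazol and the miRNeasy micro kit, and mRNA libraries were made with a directional NEBNext Ultra II kit, per the labels' protocols. The submitters' processing notes name the build mm10 and the tools STAR 2.7.0f, HOMER 4.11 and DESeq2, without saying what each did. A deposited table holds the authors' raw counts for 1 RefSeq transcript per gene, and a second their TPM (for 7 of the 32 genes of another transcript). Tests used the counts. Use of strand in counting is not given in the sources used here. In the count table the header of every library apart from WT ipsilateral 1 carries the word flip. All headers of the TPM table carry it. What the word stands for is not explained, and its bearing on the counts was not tested.

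Genes were filtered with edgeR 4.0.16 in R 4.3.3 (minimum count 10, by group), which left 17612, and scaled by TMM. A robust quasi-likelihood model of all 12 libraries in 4 groups gave two-sided tests. A gene was called when its p, adjusted by Benjamini-Hochberg over the 17612 genes, was under 0.05, and an adjusted p comes from edgeR where no other tool is named. CPM use TMM-scaled library sizes. Standard errors are the size of the log2 fold change over the square root of F. Alternatives were DESeq2 1.42.0, limma-voom and limma on log2(deposited TPM + 1) (limma 3.58.1), upper-quartile scaling, no filter, a fit of the compared groups alone, a block by library number, and leaving out each library; leaving out both WT libraries of number 1 was added after seeing the data. The fit was tested on simulated data. Motifs and overlaps with GENCODE M21 exons were found with Python 3.11.15. Of the 32 genes 12 share exonic bases with another gene, and their values are uncertain to that extent. The overlap is on the opposite strand for 9 and on the same strand for 4, with Srebf1 in both counts.

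The labels do not tie equal library numbers to 1 animal, and the model was fitted without them as a block. Deviations from the group means correlated between same-numbered ipsilateral and contralateral libraries at 0.276, 0.125 and 0.105 in DKK1 mice. In WT mice these correlations were 0.487, 0.310 and 0.297. Between unlike numbers they ranged from −0.265 to 0.172 in DKK1 mice and from −0.358 to 0.152 in WT mice. Contralateral libraries 1 of DKK1 and WT mice, which cannot be 1 animal, correlated at 0.257. Within a genotype the numbers were taken to pair the libraries on these data alone, which is weak evidence in DKK1 mice. Values with the block stand beside the results that it changes.

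The 32 genes, the second list and the markers were chosen with earlier results of these data known. All 32 genes are named; every library's value is given for up to 4 genes per role with the smallest p in a lesion comparison (20 genes), and the genotype comparisons name the 3 smallest p-values. Fdft1 and Ctsb were added after their values were seen. Of the second list, genes among the 3 smallest p-values each way in a lesion comparison are named, apart from some genes that are not reported here.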

Additional observations from a re-analysis of the deposited data

How the results depend on the processing

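In DKK1 mice 20 of 23 lesion calls, and in WT mice 9 of 19, held under all 20 alternatives, and no called value changed sign. Single genes lost a call in 67 of 840 comparisons with an alternative. With the replicate block by library number within genotype, 4 of the 32 genes rose in DKK1 mice (2 without it) and 3 in WT mice (1 without it), and 21 and 19 fell. Of all 17612 genes, 5363 rose and 4540 fell with this block in DKK1 mice, and 4442 rose and 3540 fell in WT mice. Leaving out 1 library, 10 to 18 genes fell and 1 to 2 rose in WT mice, where over all genes 1677 to 2913 fell and 2780 to 3833 rose. On the lesioned side 0 to 2 were then lower and 0 to 1 higher in DKK1 than in WT mice. On the deposited TPM 2 genes rose and 12 fell in WT mice, where 3917 of all 19265 genes rose and 1972 fell. The TPM were not rescaled, and summed to 469514 to 475734 in WT ipsilateral and 464767 to 464985 in WT contralateral libraries. In that fit the median WT lesion difference over all genes was 0.046, against 0.006 in the main fit. Between genotypes on the lesioned side DESeq2 called 2 lower and the replicate block by number across genotypes 1. Without both WT libraries of number 1, 9 genes fell in WT mice, and 4 were lower and 1 higher in DKK1 than in WT mice on the lesioned side. Mvk lost its DKK1 lesion call in 3 alternatives, Acly and Mvd in 10 each. Over all genes, the lesioned genotype comparison called 417 (268 higher, 149 lower), against 372 with upper-quartile scaling (186 each way), 343 without the filter (181 higher, 162 lower), 406 on TPM (212 higher, 194 lower), 1135 by DESeq2, 661 by limma-voom, 655 with a random block, 97 in a fit of those groups alone, 119 to 2551 leaving out 1 library (most without WT ipsilateral 1) and 3244 without both WT libraries of number 1. The intact comparison called 155, against 267 by DESeq2 and 94 to 197 leaving out 1 library. The interaction called 1, against 65 by DESeq2, 0 by limma-voom, 11 on TPM, 288 with the replicate block, 264 without both WT libraries of number 1 and 0 to 393 leaving out 1 library (most without WT ipsilateral 1). With 3 libraries a group a small difference can be missed, and the size that can be missed varies by gene with its spread.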
